A study of Mus musculus with 9 samples.

Results

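The lipoprotein and cholesterol efflux genes described here are 10 genes measured on a mouse expression array: Apoe, Apoc1, Apoc2, Apoc4, Abca1, Abcg1, Pla2g7, Soat1, Plin2 and Cd36. They were taken by name, together with every non-control probe whose transcript identifier maps to one of them, which gave 19 probes. Of the 10 genes, 9 passed a filter on dim probes and entered a table of 16843 tested genes, out of 22911 genes named on the array, and Apoc4 did not pass. Apoc2 and Pla2g7 were selected on their measured levels, which were higher after 9 than after 3 months of tamoxifen in lungs with cre. The values between those groups are therefore a description with no test. The 9-month arrays that served in that choice also enter the comparison with control lungs, so that comparison is not independent of it.

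RNA came from the whole lungs of 9 mice, with 1 Agilent one-colour array per lung and 3 biological replicates in each group. Both copies of Terf1, which encodes the telomere protein TRF1, were floxed in every animal, and every animal was given tamoxifen at a weekly dose of 250 mg/kg body weight from 8 weeks of age. TRF1flox/flox littermates, which lack cre, gave the control lungs at an age of 11 months, with tamoxifen for the last 9. SPC-creTRF1flox/flox mice gave lungs at an age of 5 months, 3 of them on tamoxifen (3-month cre), and at an age of 11 months, 9 of them on tamoxifen (9-month cre). The SPC promoter is active in alveolar type 2 cells, while the RNA is that of the whole organ. The 3-month cre and control groups differed in genotype, age and length of treatment together, and these cannot be told apart. The same holds for age and length of treatment between the cre groups, since there were no controls at 3 months. A fall in a bulk RNA level can come from fewer cells of a type or from less RNA per cell, and these cannot be told apart either.

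The 9 whole-lung marker genes were well above background on all 9 arrays. The log2 difference of Terf1 from controls was -0.52 at 9 months and -0.55 at 3 months, with adjusted p = 0.131 and 0.190 in limma, and was called in neither. The array headers name 2 slides. All 3 controls shared slide 1 with replicate 1 of the 3-month cre group, and slide 2 held the other 5 arrays. Sex was read from whether the brightest probe of Xist or that of the Y-linked gene Eif2s3y was higher on an array. This sets 2 probes against each other and served only to read sex. The controls read as 3 males, and each cre group as 1 male and 2 females. Between 64.4% and 66.45% of spots were well above background on slide 1 and 69.39% to 73.66% on slide 2, and no spot was saturated. Levels below are log2 processed signal relative to the 75th percentile of the same array, so that 0 is the level of that percentile. They can be compared between lungs for a probe but not between probes.

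Apolipoproteins are the protein part of lipoprotein particles. ApoE is made by macrophages and many other cells, accepts cholesterol from cells and binds receptors of the low-density lipoprotein receptor family, and ApoC-II is the activator of lipoprotein lipase. The transporters ABCA1 and ABCG1 move cholesterol out of cells onto lipid-poor apolipoproteins and formed particles, SOAT1 esterifies the cholesterol that stays, and PLIN2 coats the lipid droplets in which the esters are stored. In the lung, alveolar macrophages take up surfactant lipid and rely on this export path, and lipid-filled macrophages appear when it is impaired.

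The genes Apoc2, Apoc4, Apoc1 and Apoe lie side by side on chromosome 7 (GRCm38.p6), from 19671579 to 19701310, a span of 29732 bases. Between the annotated ends of Apoc4 and Apoc2 lie only 142 bases, between Apoc4 and Apoc1 8019 and between Apoc1 and Apoe 3584. RefSeq also annotates Gm44805, which covers both Apoc4 and Apoc2. The stretch just upstream of Apoc2 is shown because Apoc2 was the gene of this cluster whose level differed most between the groups. It comes from RefSeq's promoter table, on the minus strand, at chr7:19677942-19678083. The capitals mark a match to a DR1 motif, which is 2 copies of the half-site AGGTCA with 1 base between them, the arrangement bound by PPAR and RXR. Up to 2 mismatches were allowed on either strand.

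Apoc2 upstream: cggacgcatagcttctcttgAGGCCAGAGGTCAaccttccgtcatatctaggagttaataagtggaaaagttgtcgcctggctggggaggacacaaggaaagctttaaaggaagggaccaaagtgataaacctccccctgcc

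DR1 matches stood in the promoter windows, 250 bases before to 50 after a start site, of 3 of the 8 members that have one in the table. The 3 stretches are set side by side to show how the matches differ. The match of Apoc2 had 1 mismatch, and those of Plin2 (minus strand, chr4:86670264-86670292) and Cd36 (minus strand, chr5:17835939-17835967) had 2 each and read as the reverse complement. Capitals mark the match.
Apoc2: ttctcttgAGGCCAGAGGTCAaccttccg
Plin2: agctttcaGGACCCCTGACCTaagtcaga
Cd36: tggttctcTGGCCTCTGACTTacttggat
Of all 32851 windows in the table, 3.86% held a DR1 match, against 3 of the members' 10 windows. The DR4 motif is the same half-sites with 4 bases between them, as bound by the liver X receptors. With up to 2 mismatches allowed, it had no match in these 10 windows (0, against 3.02% of all windows). Stretches with more mismatches were not counted, so this does not show that the members lack the element. The letters TCACGTG, the core of the element bound by TFEB and MITF, stood in 1 of the 10, that of Plin2, against 3.77% of all windows. These matches describe letters in a window and show no binding. Apoc1 and Abcg1 had no entry.

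Apoc2 and Pla2g7 were the members with the largest differences. Against controls at equal age and treatment, 2 of the 9 tested members rose in 9-month cre lungs (limma, Benjamini-Hochberg adjusted p under 0.05) and 0 fell, with 1 lower at unadjusted p under 0.05. Over all genes 3.65% rose and 2.81% fell in this comparison, so that 56.5% of calls were rises, against 45.9% with the deposited normalized values. The median log2 difference of the 9 members was 0.43, beside 0.024 over all genes. Apoc2 and Pla2g7, the 2 that rose, were chosen on these same 9-month arrays. The count and the median are therefore not evidence about the set. In 3 members the arrays of both groups did not overlap (Apoc2 and Pla2g7 higher, Cd36 lower), and over all genes this held for 32.5%.

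**Figure D1:**
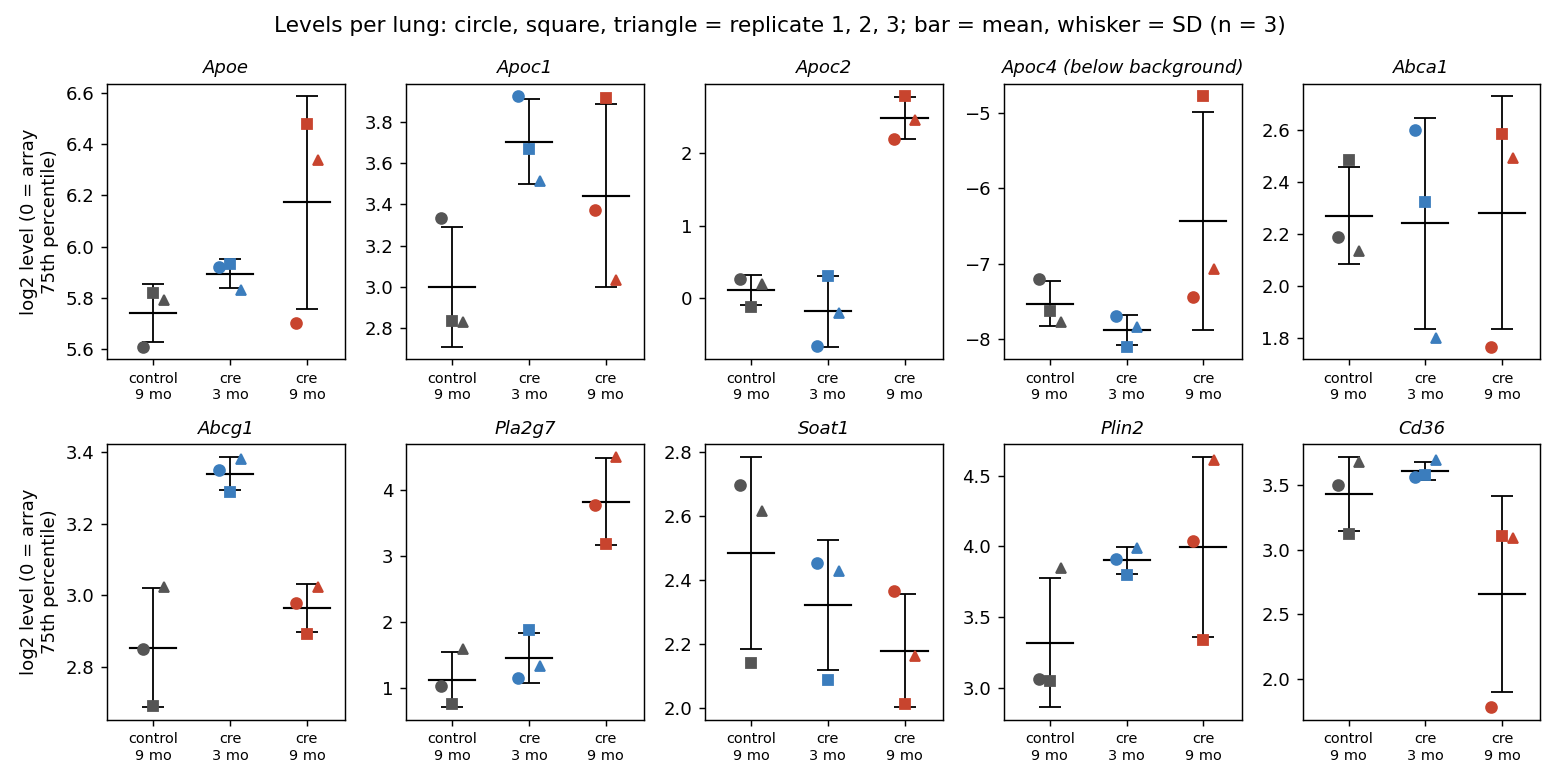
Level of each of the 10 genes in each lung, as log2 processed signal relative to the array's 75th percentile, with a scale of its own in each panel. Points are single lungs, the bar is the group mean and the whisker the SD of 3 lungs. Apoc2 and Pla2g7 are higher in every 9-month cre lung than in the other 6 lungs, and Cd36 is lower there.

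Apoc2 (chromosome 7, 19671579 to 19677941) stood at 0.26, -0.12 and 0.19 in control replicates 1, 2 and 3. It was at -0.66, 0.31 and -0.20 in the 3-month cre lungs and at 2.20, 2.79 and 2.47 in the 9-month cre lungs. All 3 of the 9-month lungs were above all 6 others, and the 3-month lungs spread across the control range. Against controls the 9-month difference was 2.38 ± 0.26 (SE, n = 3 against 3), or 5.19-fold, with adjusted p = 0.00897 in limma. At 3 months it was -0.30 ± 0.26 (adjusted p = 0.555 in limma, 95% interval -0.88 to 0.29), and on slide 1 alone, where 1 of the 3-month lungs meets the controls, it was -0.78. The difference between the cre groups, on which the gene was chosen, was 2.67 ± 0.26, and 2.44 on slide 2 alone. The second Apoc2 probe, with means of -1.84 ± 0.31 (SD, n = 3) in controls, -1.94 ± 0.63 at 3 months and 0.36 ± 0.46 at 9 months, gave 2.19 ± 0.34 (SE) at 9 months (adjusted p = 0.0185 over probes in limma).

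Apoe (chromosome 7, 19696244 to 19701310) had levels of 5.61, 5.82 and 5.79 in controls, 5.92, 5.93 and 5.83 in 3-month cre lungs and 5.70, 6.48 and 6.34 in 9-month cre lungs. The 3-month lungs were all just above the controls. Of the 9-month lungs, replicates 2 and 3 were above all others, and replicate 1 lay within the control range. The 9-month difference of 0.43 ± 0.19 (SE) was not called (adjusted p = 0.189 in limma, 95% interval -0.0073 to 0.87), and the 3-month difference was 0.15 ± 0.19 (adjusted p = 0.696). The 3-month value turned to -0.043 with quantile normalization, to -0.034 with the deposited values and to -0.063 with animal sex as a covariate. Without 9-month cre replicate 1 the 9-month value was 0.67 and was called (adjusted p = 0.0461), and without replicate 2 it was 0.28. The second Apoe probe differed from the first. Its levels were 1.23, 2.72 and 2.67 in the 9-month lungs against a control mean of 2.20 ± 0.13 (SD, n = 3), and the difference was 0.0081 ± 0.35 (SE). At 3 months that probe stood 0.54 ± 0.35 above controls, which was not called (adjusted p = 0.407 over probes in limma).

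Apoc1 (chromosome 7, 19689480 to 19692659) encodes a small apolipoprotein that inhibits lipoprotein lipase and the uptake of lipoproteins by receptors. Its levels were 3.33, 2.84 and 2.83 in controls, 3.92, 3.67 and 3.52 in 3-month cre lungs and 3.38, 3.91 and 3.03 in 9-month cre lungs. The 3-month lungs were all above the controls, and the 9-month lungs overlapped both groups. The difference from controls was 0.70 ± 0.24 (SE) at 3 months (adjusted p = 0.185 in limma). It was 0.44 ± 0.24 at 9 months (adjusted p = 0.267), and Apoc1 was called at neither time. Between the cre groups it was -0.26 ± 0.24. The 9-month value was 0.20 without 9-month cre replicate 2, and the value between the cre groups was -0.059 without 9-month replicate 3 and -0.50 without replicate 2.

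Apoc4 (chromosome 7, 19678084 to 19681460) had 1 probe, which was well above background on 1 array of the 9. That array was 9-month cre replicate 2, at -4.78, and the other 8 ranged from -8.09 to -7.07. Replicate 2 was also the 9-month lung with the most Apoc2. No fold is given for Apoc4, since its signal lay below the background limit in all control and all 3-month lungs and in 2 of the 9-month lungs.

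Around the cluster, the 5 nearest tested genes on each side were taken by position, a set added after the members' values were seen. Of these 10 neighbours 1 rose in 9-month cre lungs, Bcl3, a coactivator of NF-kappaB, by 1.21 ± 0.16 (SE, adjusted p = 0.0119 in limma), and 0 fell. Over all genes 3.65% rose and 2.81% fell. Tomm40, which adjoins Apoe, stood at 0.29 ± 0.11 (adjusted p = 0.145), and Clptm1, which is nearest to Apoc2, at -0.022 ± 0.11 (adjusted p = 0.914). The neighbours ranged from -0.38 to 1.21. The value of Apoc2 lay above all 10, but Apoc2 was chosen on its 9-month levels, so nothing is read from that rank.

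**Figure D2:**
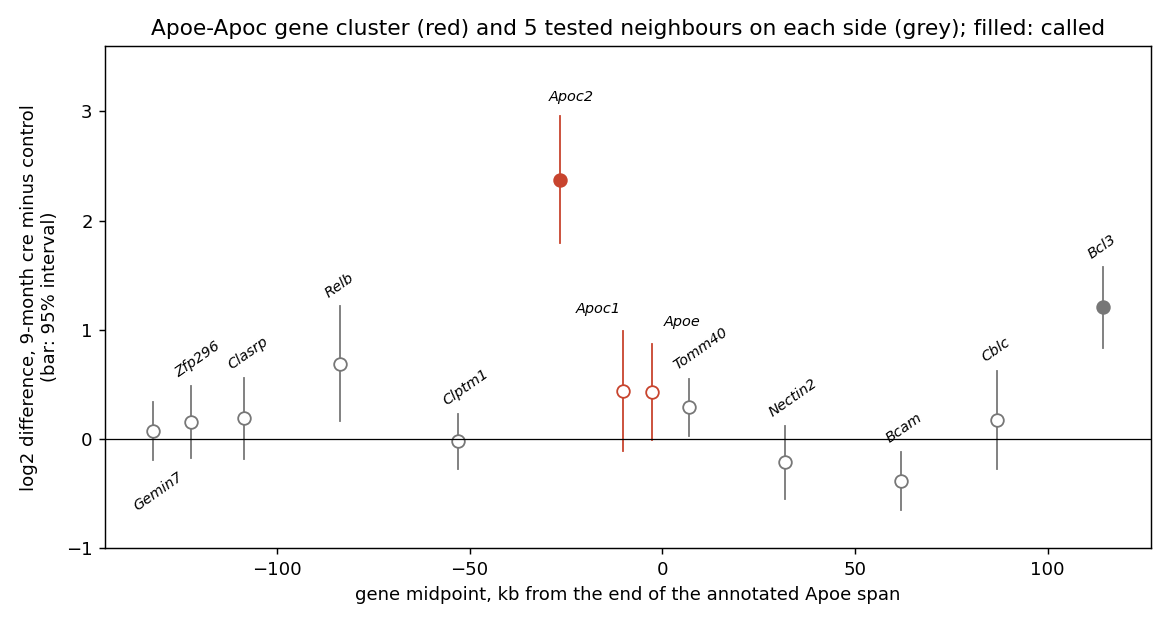
Log2 difference between 9-month cre and control lungs along the Apoe gene cluster, against the distance of each gene's midpoint from the end of the annotated Apoe span in kb. Bars are 95% intervals, red marks the cluster, grey the 10 neighbours, and filled points were called. Apoc2, at 2.38, which was chosen on its 9-month levels, lies above every other gene shown, and the next highest is Bcl3, at 1.21.

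The transporters did not pass the test in either comparison with controls. Abca1 (chromosome 4, 53030789 to 53159988) stood at 2.19, 2.48 and 2.13 in controls, 2.60, 2.32 and 1.80 in 3-month cre lungs and 1.77, 2.58 and 2.49 in 9-month cre lungs. The 3 groups overlapped fully. Its differences from controls were 0.012 ± 0.27 (SE) at 9 months (adjusted p = 0.981 in limma, 95% interval -0.60 to 0.62) and -0.029 ± 0.27 at 3 months (adjusted p = 0.967). A dimmer Abca1 probe gave 0.16 ± 0.39 at 9 months and -0.69 ± 0.39 at 3 months, without a call.

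Abcg1 (chromosome 17, 31057694 to 31117984) showed another pattern, with its highest levels in the 3-month lungs. It was at 2.85, 2.69 and 3.02 in controls, 3.35, 3.29 and 3.38 in 3-month cre lungs and 2.98, 2.89 and 3.02 in 9-month cre lungs. The 3-month lungs lay above all 6 others, and the 9-month lungs lay in the upper part of the control range, with an SD of 0.067 against 0.17 in controls. The 3-month difference from controls was 0.49 ± 0.11 (SE, 1.40-fold), which was not called (adjusted p = 0.103 in limma). At 9 months it was 0.11 ± 0.11 (adjusted p = 0.540, 95% interval -0.14 to 0.37), and between the cre groups it was -0.38 ± 0.11. On slide 1 alone, where 3-month cre replicate 1 can be set against the controls, the difference was 0.50. On slide 2 alone the difference between the cre groups was -0.37.

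Between 3-month cre and control lungs 0 of the 9 tested members were called in limma, and 2, Apoc1 and Abcg1, were higher at unadjusted p under 0.05. Over all genes 0.368% rose and 0.0831% fell. The arrays did not overlap in 3 members, Apoe, Apoc1 and Abcg1, all higher, and in 31% of all genes. The median difference of the members was 0.18, beside 0.054 over all genes.

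**Figure D3:**
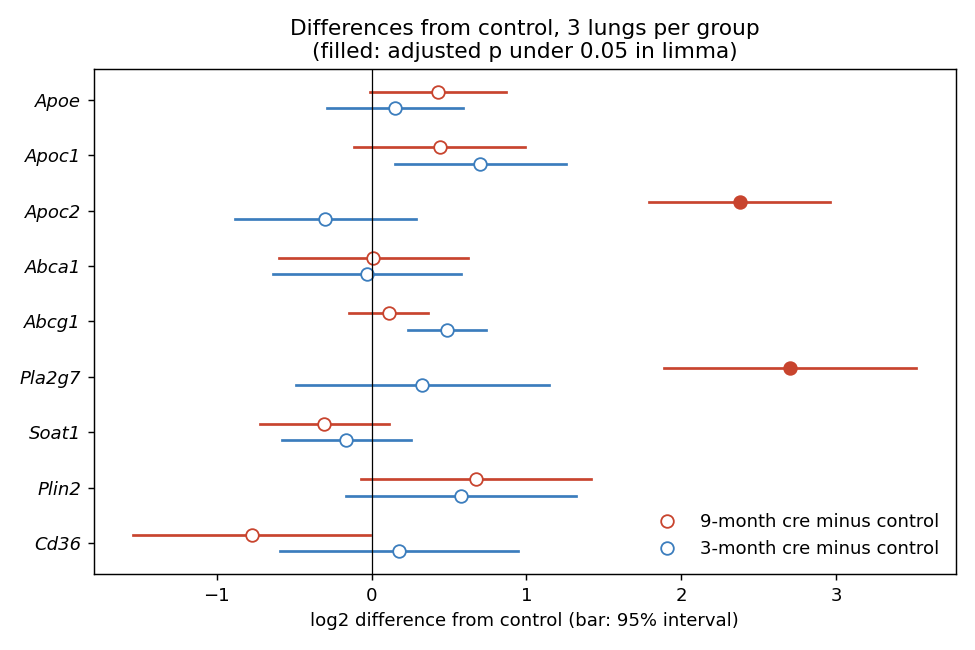
Log2 difference from control for the 9 tested genes in 9-month cre (red) and 3-month cre lungs (blue), 3 lungs per group. Bars are 95% intervals from limma and filled points have an adjusted p under 0.05. Apoc2, at 2.38, and Pla2g7, at 2.70, are the filled points, and the blue value of Apoc2 is -0.30.

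Pla2g7 (chromosome 17, 43567994 to 43612202) encodes platelet-activating factor acetylhydrolase, a secreted phospholipase A2 that travels on lipoproteins and hydrolyses platelet-activating factor and oxidised phospholipids. Its levels were 1.03, 0.76 and 1.58 in controls, 1.15, 1.87 and 1.33 in 3-month cre lungs and 3.77, 3.19 and 4.51 in 9-month cre lungs. Every 9-month lung was above all others, and the controls and 3-month lungs overlapped. Against controls Pla2g7 rose by 2.70 ± 0.36 (SE, 6.50-fold) at 9 months, with adjusted p = 0.0119 in limma. At 3 months it stood at 0.33 ± 0.36 (adjusted p = 0.648, 95% interval -0.49 to 1.14), and on slide 1 alone at 0.026. The difference between the cre groups, on which it was chosen, was 2.37 ± 0.36, and on slide 2 alone it was 2.22. Both further probes gave 2.59 at 9 months, with adjusted p = 0.0176 and 0.0261 over probes in limma.

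No 9-month cre array shared a slide with a control array, so there is no value of the late comparison within a slide. With the slide as a block, which joins the groups through the 3-month cre arrays, Apoc2 stood at 1.66 ± 0.37 (SE, adjusted p = 0.936 in limma) and Pla2g7 at 2.25 ± 0.66 (adjusted p = 0.965). In that fit 0 genes of 16843 were called, with 837 at unadjusted p under 0.05, Apoc2 and Pla2g7 among them. With animal sex as a covariate Apoc2 stood at 2.48 (adjusted p = 0.0520) and Pla2g7 at 2.89 (adjusted p = 0.0569), and again 0 genes were called, with 3711 at unadjusted p under 0.05. The male 9-month lung, replicate 1, had 2.20 for Apoc2 and 3.77 for Pla2g7, each above all 3 controls. It is 1 lung, on another slide than the controls, and both genes were chosen partly on its levels. The parts of sex, slide and genotype in these values cannot be told apart.

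Soat1 (chromosome 1, 156428108 to 156474328) was at 2.70, 2.14 and 2.62 in controls, 2.45, 2.09 and 2.43 in 3-month cre lungs and 2.37, 2.01 and 2.16 in 9-month cre lungs. Replicate 2 was lowest in all 3 groups, and the groups overlapped. The differences from controls were -0.30 ± 0.18 (SE) at 9 months (adjusted p = 0.304 in limma) and -0.16 ± 0.18 at 3 months (adjusted p = 0.658). The 9-month value was -0.48 without control replicate 2 and -0.20 without control replicate 1. Of its 4 probes, 3 were below controls at 9 months, at -0.54 to -0.27, and 1 was above, at 0.17. None of these 4 was called at either time, and the lowest adjusted p among them at 9 months was 0.143.

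Plin2 (chromosome 4, 86626910 to 86670217) was at 3.07, 3.05 and 3.85 in controls, 3.91, 3.80 and 3.99 in 3-month cre lungs and 4.04, 3.34 and 4.61 in 9-month cre lungs. Control replicate 3 lay between the 3-month lungs, and 9-month replicate 2 lay among the controls. Differences from controls were 0.67 ± 0.32 (SE) at 9 months (adjusted p = 0.216 in limma) and 0.58 ± 0.32 at 3 months (adjusted p = 0.367). The second probe gave 0.60 ± 0.19 and 0.44 ± 0.19, with adjusted p = 0.0917 and 0.221 over probes. Both probes were thus above controls at both times without a call. Between the cre groups Plin2 differed by 0.094 ± 0.32. Without 9-month replicate 3 the 9-month value was 0.37 and the value between the cre groups turned to -0.21, and without replicate 2 these were 1.00 and 0.42.

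Cd36 (chromosome 5, 17781690 to 17888959) encodes a scavenger receptor for oxidised lipoproteins and fatty acids, known from macrophages, capillary endothelium, fat and heart muscle. It was at 3.50, 3.12 and 3.68 in controls, 3.56, 3.57 and 3.69 in 3-month cre lungs and 1.78, 3.103 and 3.09 in 9-month cre lungs. All 9-month lungs were below the others. Replicate 1, the male of that group, was by far the lowest, while replicates 2 and 3 lay just below the lowest control. The 9-month difference was -0.77 ± 0.33 (SE) and was not called (adjusted p = 0.179 in limma), and it was -0.34 without replicate 1 and -1.23 with animal sex as a covariate (adjusted p = 0.106). At 3 months it was 0.18 ± 0.33 (adjusted p = 0.807), or -0.28 with that covariate, and between the cre groups -0.95 ± 0.33, or -0.51 without replicate 1.

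Of the 9 tested members, 6 had their largest SD in the 9-month cre lungs, against 2 in controls and 1 in 3-month cre lungs. Each SD rests on 3 lungs and the share over all genes is not given, so this count says nothing particular to the members. Replicate 1 was the lowest of the 9-month lungs for 4 members. Replicate 2 was the highest for 5 and also the lowest for 4 (Abcg1, Pla2g7, Soat1 and Plin2). Between the 9-month and 3-month cre lungs the arrays did not overlap for 4 members, 2 higher (Apoc2 and Pla2g7) and 2 lower (Abcg1 and Cd36). Over all genes this share was 33.6%, and 1.79% were called higher and 3.2% lower. The median of the 9 members was 0.041, beside -0.029 over all genes, and this contrast chose Apoc2 and Pla2g7, so nothing is read from these counts.

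**Figure D4:**
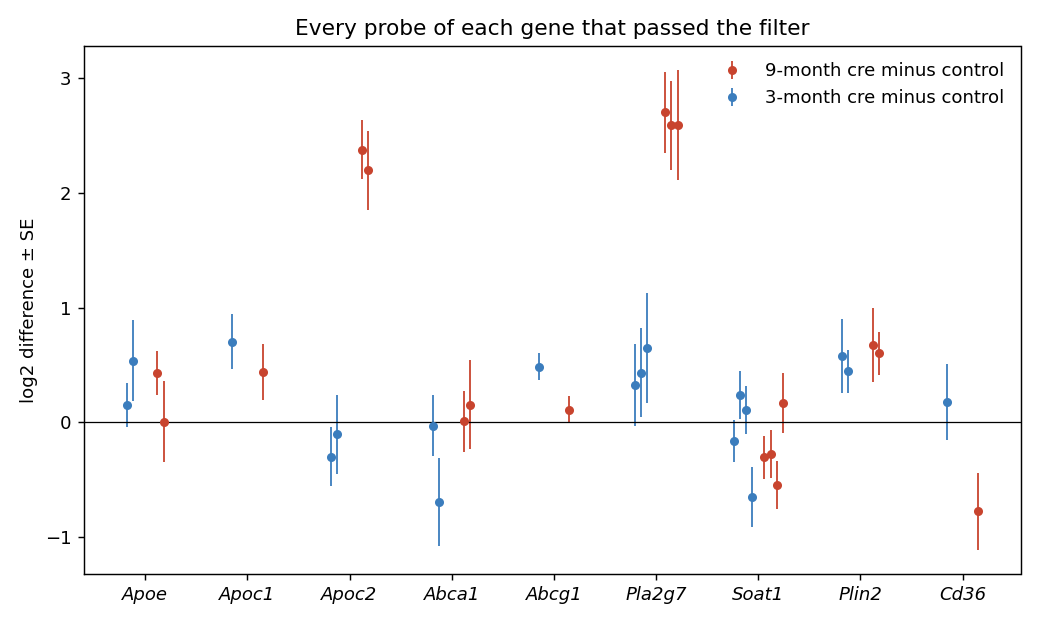
Log2 difference from control of each of the 18 probes that passed the filter, in 9-month cre (red) and 3-month cre lungs (blue), with the SE. All 5 probes of Apoc2 and Pla2g7 lie between 2.19 and 2.70 at 9 months, while the probes of Apoe and Soat1 differ among themselves.

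Of the 18 member probes tested, 5 were called at 9 months, those of Apoc2 and Pla2g7, and 0 at 3 months in limma. Over all 24369 probes tested, 1291 were called at 9 months and 130 at 3 months. Apoc2 and Pla2g7 were chosen on these same 9-month arrays, and probes of the same gene in the same lungs are not independent. The count of 5 at 9 months is therefore not evidence about the set.

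Marker genes of other cells were summed in the same lungs, and such a sum follows its brightest probes most. As sums of linear levels, in units of the array's 75th percentile, 15 alveolar macrophage markers ranged from 139 to 221 in controls, 297 to 350 in 3-month cre lungs and 237 to 340 in 9-month cre lungs. The sums of 15 monocyte and interstitial macrophage markers were 178 to 199, 191 to 230 and 265 to 274. The median log2 difference of the first list from controls was 0.17 at 9 months and 0.71 at 3 months, and that of the second was 0.82 and 0.74. At 9 months 1 gene of the first list was called higher and 1 lower, and 3 of the second were called higher. Of the neutrophil list 2 were called higher, 2 alveolar type 2, 1 endothelial and 1 heart muscle marker were called lower, and 0 adipocyte or hepatocyte markers were called in limma, where 3.65% of all genes rose and 2.81% fell. Neutrophil markers (10 tested) ranged from 105 to 206, 159 to 227 and 121 to 392. Replicates 1, 2 and 3 of the 9-month cre group had sums of 392, 382.5 and 121. The sums of 12 alveolar type 2 markers, the cells in which the cre is active, were 681 to 805 in controls, 761 to 1025 in 3-month cre lungs and 796 to 1043 in 9-month cre lungs. The median difference of that list at 9 months was -0.43, opposite in sign to the change of its sums. Beside Cd36, the sums of 12 capillary endothelial markers were 338 to 383, 295 to 327 and 302 to 321. Heart muscle markers ranged from 77.9 to 248, 35.3 to 103 and 75 to 98.9, and adipocyte markers from 16.0 to 62.2, 14.5 to 44.3 and 11.3 to 25.3. Among 12 hepatocyte markers, Apoa1, Ttr, Fgb and Apoh did not pass the filter, and the sum of the other 8 was 4.45 to 12.6 over the 9 lungs. The part of these cells in the members' values was not tested.

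Other genes of the pathway were taken from 7 lists with 119 tested genes, chosen with earlier results of these data known. At 9 months 7 of them were past the test as higher (5.88%) and 2 as lower (1.68%) against controls, beside 3.65% and 2.81% of all genes. Of the 7, Lrp8 passed the filter on dim probes only through the 9-month lungs, which leaves 6. At 3 months 2 rose (1.68%) and 0 fell, beside 0.368% and 0.0831% of all genes. Between the cre groups 4 were higher (3.36%) and 3 lower (2.52%), beside 1.79% and 3.2% of all genes. None of these calls against controls held with the slide as a block or animal sex as a covariate, since 0 genes of the table were called in either fit. Between the cre groups 0 genes of the table were called with the slide as a block and 0 on slide 2 alone. With animal sex as a covariate 234 were called there.

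**Figure D5:**
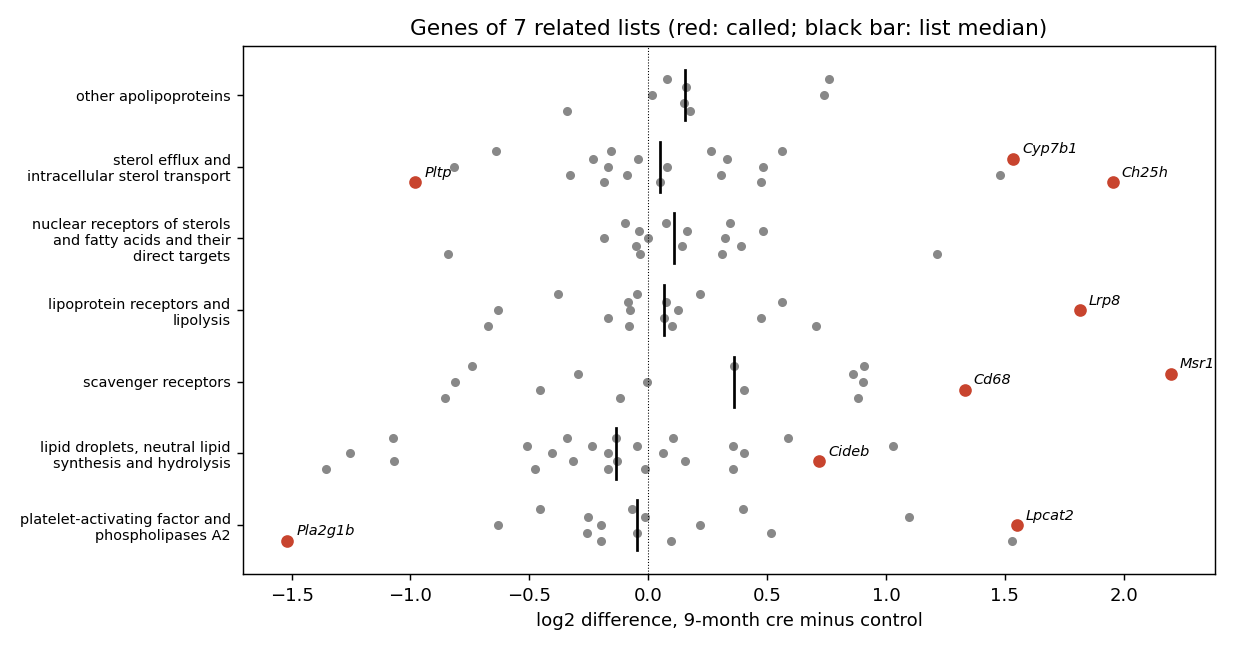
Log2 difference between 9-month cre and control lungs for each of the 119 tested genes of 7 related lists. Red points were called, and the black bar is the list median. Medians run from -0.14 for lipid droplet genes to 0.36 for scavenger receptors, and Lrp8, plotted at its measured value, was below background in all controls.

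Of the 15 further apolipoproteins, 8 were tested and 0 were called in limma in any comparison, with 1 at unadjusted p under 0.05 in each. Apoc3, an inhibitor of lipoprotein lipase, stood at -0.34 ± 0.12 (SE) at 9 months (adjusted p = 0.119), and Apol9a at 0.74 ± 0.38 (adjusted p = 0.240). Apom, a carrier of sphingosine 1-phosphate, was at -0.40 ± 0.16 at 3 months (adjusted p = 0.230). The list medians were 0.15 at 9 months and -0.11 at 3 months.

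Among 21 genes of sterol efflux and intracellular sterol transport, 2 rose and 1 fell at 9 months, with a median of 0.051. Ch25h, the enzyme that makes 25-hydroxycholesterol, rose by 1.95 ± 0.35 (SE, adjusted p = 0.0226 in limma), from a control mean of 0.71 ± 0.42 (SD, n = 3) to 2.67 ± 0.71. Cyp7b1, which hydroxylates that oxysterol further, rose by 1.53 ± 0.27 (SE, adjusted p = 0.0217). Pltp, the phospholipid transfer protein of plasma lipoproteins, fell by 0.98 ± 0.20 (adjusted p = 0.0306), with controls at 4.39 to 4.53 and 9-month cre lungs at 3.21 to 3.92. At 3 months 0 were called in limma, with 3 higher and 2 lower at unadjusted p under 0.05, and Ch25h stood at 1.72 ± 0.35 (adjusted p = 0.0824) and Lcat at -0.90 ± 0.16 (adjusted p = 0.0639). Between the cre groups Lcat, which esterifies cholesterol on high-density lipoprotein, was higher at 9 months by 1.16 ± 0.16 (adjusted p = 0.0210) and Abca7 by 0.80 ± 0.15 (adjusted p = 0.0322). Npc2, the lysosomal sterol carrier, fell by 0.91 ± 0.20 (adjusted p = 0.0456).

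Of 16 nuclear receptors and their direct targets 0 were called against controls at either time in limma, with 3 higher and 1 lower at unadjusted p under 0.05 in each comparison. Nr1h3, the liver X receptor alpha, was at 3.45, 3.40 and 3.52 in controls, 3.06, 3.32 and 3.33 in 3-month cre lungs and 3.87, 3.59 and 3.88 in 9-month cre lungs. The 9-month lungs were above all others, and the difference between the cre groups, 0.54 ± 0.12 (SE), was called (adjusted p = 0.0476). Against controls it was 0.32 ± 0.12 at 9 months (adjusted p = 0.137). Pparg, a receptor that alveolar macrophages need for lipid handling, stood at 0.57 ± 0.16 at 3 months (adjusted p = 0.133) and Arl4c, a liver X receptor target, at 0.77 ± 0.19 (adjusted p = 0.111).

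Of 17 tested lipoprotein receptor and lipolysis genes 1 was past the test at 9 months, Lrp8, an ApoE receptor (adjusted p = 0.0271 in limma). Its probe was well above background in all 3 of the 9-month lungs, in 1 3-month lung and in 0 controls. It passed the filter only through the group where it is high, so nothing is read from its call. The level was at least 1.17-fold higher at 9 months, a bound against the dimmest signal above background. Sdc1, a heparan sulfate proteoglycan that captures lipoproteins, fell by 0.68 ± 0.15 (SE, adjusted p = 0.0424) between the 3-month and 9-month cre lungs and stood at 0.60 ± 0.15 against controls at 3 months (adjusted p = 0.111). The list median was 0.068 at 9 months.

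Of 15 scavenger receptors 2 rose at 9 months and 1 at 3 months, with medians of 0.36 and 0.17. Msr1, the class A receptor for modified lipoproteins, had a control mean of -4.02 ± 0.26 (SD, n = 3) and a 9-month mean of -1.82 ± 0.60, a rise of 2.20 ± 0.29 (SE, adjusted p = 0.0117 in limma). Cd68, a lysosomal protein of macrophages, rose by 1.33 ± 0.24 (adjusted p = 0.0233). At 3 months Msr1 stood at 1.49 ± 0.29 (adjusted p = 0.0761) and Cd68 at 1.38 ± 0.24 (adjusted p = 0.0633). Olr1, the receptor LOX-1, rose at 3 months by 1.68 ± 0.24 (adjusted p = 0.0344). Its levels were -1.66 to -1.22 in controls, 0.0051 to 0.34 at 3 months and -1.12 to -0.26 at 9 months, so it was highest in the 3-month lungs. Msr1 and Cd68 are macrophage genes, and the macrophage marker sums given above moved in the same lungs. More macrophages and more RNA per cell cannot be told apart here, and the part of either in these rises was not tested.

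Of 25 lipid droplet and neutral lipid genes 1 rose at both times, Cideb, a droplet protein of lipoprotein-secreting cells. It rose by 0.72 ± 0.14 (SE, adjusted p = 0.0267 in limma) at 9 months and by 0.94 ± 0.14 (adjusted p = 0.0352) at 3 months, and both comparisons share the controls. The list medians were -0.14 and 0.079. Pnpla3, a lipase of droplets, stood 2.09 ± 0.50 higher at 9 than at 3 months without a call (adjusted p = 0.0520), and Acsl1, an acyl-CoA synthetase, at -0.70 ± 0.18 (adjusted p = 0.0594).

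In the list of platelet-activating factor and phospholipase A2 genes, 1 of 17 rose and 1 fell at 9 months, with a median of -0.046. Lpcat2, an enzyme that makes platelet-activating factor in inflammatory cells, rose by 1.55 ± 0.18 (SE, adjusted p = 0.00897 in limma). It stood at 0.22, 0.062 and 0.35 in controls, 0.48, 0.86 and 0.61 in 3-month cre lungs and 1.69, 1.49 and 2.10 in 9-month cre lungs, with no overlap between any pair of groups. Pla2g1b, a secreted phospholipase A2, fell by 1.52 ± 0.26 (adjusted p = 0.0205). Between the cre groups Lpcat2 was higher at 9 months by 1.11 ± 0.18 (adjusted p = 0.0272) and Pla2g1b fell by 1.25 ± 0.26 (adjusted p = 0.0403). Over all genes the arrays did not overlap in 31% to 33.6%, depending on the pair of groups. Pla2g7, which degrades platelet-activating factor, was also higher in all 3 of the 9-month lungs than in all others. It was chosen on its levels in these lungs, so nothing is read from its standing beside Lpcat2.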

How the data were processed

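Whole-lung RNA of 9 mice was hybridised to 9 one-colour Agilent arrays. Per the file headers, Agilent Feature Extraction, version 10.7.3.1, made the deposited intensity values, which have background subtracted within each array and no scaling between arrays. A separate deposited set holds the authors' normalized intensity on a linear scale, by a tool not given in the sources used here. From the deposited intensity the log2 of the processed signal was taken relative to each array's 75th percentile over non-control probes, which was 958.4 to 1429.8 intensity units, against a local background of 28 to 35. The number of arrays limits the precision.

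Irregular spots were left out. A probe needed 1 group in which all arrays were well above background (37647 of 56605 kept). Transcript identifiers matched RefSeq (GRCm38.p6) symbols for 32994 probes, and the position of a probe in its transcript is not given. The brightest probe stood for a gene. A limma fit (version 3.58.1, R 4.3.3, files read with the package data.table, version 1.17.8) took all 9 arrays, with 6 residual degrees of freedom, two-sided moderated tests and Benjamini-Hochberg adjustment over 16843 genes (or 24369 probes) within a comparison. "Called", "rose" and "fell" mean an adjusted p under 0.05. The step was checked on simulated data.

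The members and lists were chosen with earlier results of these data known. Named are all 10 members in every comparison, from each list up to 4 called genes or, with none called, up to 2 of smallest p, the marker sums, and Terf1. The same replicate number in different groups did not pair the lungs. Alternatives changed background correction, scaling, filter, probe choice, slide, sex, the deposited values and the arrays used.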

Additional observations from a re-analysis of the deposited data

Results flagged for a closer look

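Cd36 stood on opposite sides of the control mean in the cre groups, at 0.18 ± 0.33 (SE) on the log2 scale after 3 months and at -0.77 ± 0.33 after 9 months. Neither was called (adjusted p = 0.807 and 0.179 in limma). Replicates 1 and 2 of the 3-month cre lungs lay within the control range. Without 9-month cre replicate 1 the 9-month difference was -0.34. Each 3-month cre lung was above the control mean, by 0.13, 0.14 and 0.26, and each 9-month cre lung was below it, at -1.65, -0.33 and -0.34. The difference between the times was not tested, since members are only described on the contrast on which Apoc2 and Pla2g7 were selected. With animal sex as a covariate the 3-month value was -0.28 and the 9-month value -1.23 (adjusted p = 0.106 in limma, not called), so both lay below the controls in that fit.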

How the results depend on the processing

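The count of 2 called members at 9 months (Apoc2 and Pla2g7) fell to 0 with the slide as a block and to 0 with animal sex as a covariate, with 2 and 3 members at unadjusted p under 0.05. It ranged from 2 to 3 without 1 array, and Apoe was the third without 9-month cre replicate 1, also with the filter and probe choice redone, an alternative chosen after seeing the data. It was 2 with the replicate block, although the replicate numbers did not pair the lungs (same-number correlations of -0.24 to 0.045). Both genes kept their sign in 21 of 21 alternatives, at 1.66 to 2.52 and 2.25 to 3.02, and were called in 19. The alternatives reuse the 9-month arrays on which both genes were chosen, so these counts are not evidence that the rises are stable. At 3 months 0 members were called in 22 of 22 alternatives. The members' median between the cre groups, 0.041, reversed to -0.12 with the mean of all kept probes, as did Apoe to -0.13, and ranged from -0.090 to 0.10 without 1 array, below 0 without 3-month cre replicate 3 or 9-month cre replicate 2 or 3. The cause was not tested. Called genes of all numbered 1087, 76 and 840 (9 months, 3 months, between cre groups). They were 317, 42 and 6 with the replicate block, 489, 14 and 104 with no filter, 185, 389 and 335 with only the groups compared, and 158 to 1638, 1 to 322 and 0 to 1224 without 1 array. Of these the lowest at 9 months was without control replicate 2 and the highest without 9-month cre replicate 2. The lowest at 3 months came on leaving out control replicate 2, or replicate 2 or 3 of the 3-month cre group, and the highest without 9-month cre replicate 3. Between the cre groups the lowest was without 3-month cre replicate 1 and the highest without control replicate 3. The calls of list genes kept their sign in every alternative that gave a value, and Cideb was called in 9 of 22 at 3 months and 9 of 21 at 9 months, Lpcat2 and Msr1 in 19 of 21 at 9 months. Signal below background limits Apoc4 and Lrp8.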
